A study of Mus musculus with 2 samples.

Results

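The Myc and Max network is a family of transcription factors that bind E-box sequences in DNA as pairs built around Max or its relative Mlx. It was represented here by 9 genes, Myc, Mycn, Max, Mxd1, Mxd3, Mxd4, Mxi1, Mnt and Mlx, of 28095 gene names on the array. The members were chosen by name, as all non-control spots that carried one of these gene names on both arrays, which gave 17 probes on 26 spots. The cells were NIH3T3, an established mouse fibroblast line, either left untreated (control) or given 10 µM thapsigargin for 3 h, which blocks calcium uptake into the endoplasmic reticulum and so stresses that compartment. Neither group carried any other label for genotype or treatment. Lysates had been separated on sucrose gradients, the polysomal RNA (P) carried the dye Cy3, and the free plus monosomal RNA (FM) carried Cy5. RNA of 3 experiments was pooled for each condition and put on 1 array, so no value below has a replicate between preparations, no test between the conditions was possible, and having so few arrays is what bounds the precision.

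Myc pairs with Max to activate genes for growth, ribosome making and cell division, and Mycn is its close relative. Max, which has no activating domain of its own, also pairs with Mxd1, Mxd3, Mxd4, Mxi1 and Mnt, which bring in the Sin3 corepressor and compete with Myc for Max and for the E-box. Mlx takes the place of Max in pairs with Mxd1, Mxd4, Mnt and with glucose-responsive partners. In endoplasmic reticulum stress, initiation of translation falls for most mRNAs, while a minority stays on polysomes or moves onto them.

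The 3 measured probes of Myc, the member with the highest change, are shown beside 1 probe each of Mxd3, Mxd4 and Mlx, the genes with the lowest changes. They are 60 bases long, are written in the sense of the mRNA as given on the array, and have positions on mouse build mm9 from the array files. Probe A_52_P278549 lies at chr15:61820925-61820984 on the plus strand, from base 1407 of the Myc transcript NM_010849. Probe A_52_P108346 follows at chr15:61821417-61821476, from base 1899, and holds the Myc stop codon, which is in capitals. Probe A_51_P102096, at chr15:61821516-61821576, starts past the stop codon at base 1998, and its first 30 bases are given. The Mxd3 probe maps to chr13:55427253-55427426 on the minus strand, a span of 174 bases that is longer than the probe itself. The Mxd4 probe maps to chr5:34520307-34520366 on the minus strand. The Mlx probe maps to chr11:100952426-100952485 on the plus strand and holds the Mlx stop codon, in capitals.

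Myc A_52_P278549: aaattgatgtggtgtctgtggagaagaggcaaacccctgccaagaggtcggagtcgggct
Myc A_52_P108346: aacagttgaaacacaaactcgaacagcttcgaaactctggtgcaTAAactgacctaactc
Myc A_51_P102096, first 30 bases: gttccttctgacagaactgatgcgctggaa
Mxd3 A_51_P315530: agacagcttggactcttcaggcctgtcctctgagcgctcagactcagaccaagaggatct
Mxd4 A_51_P148865: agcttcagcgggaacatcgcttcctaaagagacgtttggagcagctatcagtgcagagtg
Mlx A_51_P261443: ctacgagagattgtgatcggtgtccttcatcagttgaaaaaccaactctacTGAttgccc

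For each probe, log2 P/FM compares the background-subtracted polysomal signal with the free plus monosomal one, A averages both log2 signals as a measure of the total, and every difference is thapsigargin minus control. A probe entered the comparison when A was above 4.5 on both arrays, which is above the highest negative control spot (4.13 on the control and 4.35 on the thapsigargin array). Of the 17 member probes 12 passed, covering 8 of the 9 genes, and all 12 were well above background in both fractions on both arrays. The reference was the 14657 probes with coding accessions that passed the same filter. Over these, the median change was -0.64 in log2 P/FM and 0.40 in A, and each member is also given relative to these. By fraction, the median change was 0.08 in log2 P signal and 0.71 in log2 FM signal. The directions below are those of the unscaled signals. Scaling to the spike-in controls raised the median change in log2 P/FM of all coding probes to 1.91. Every measured member except Mxd3 then had a change above 0. The fractions were labelled in their measured proportions, which differed between the conditions, and how this bears on the spike-in scaling was not tested. Of the fibroblast markers 8 of 8 were detected, while none of the epithelial, endothelial, neuronal and muscle markers and 1 of 4 leukocyte markers (Cd3e, a T cell receptor chain) were. The stress itself was visible in Ddit3, a transcription factor of the stress response, whose A was 8.71 in control and 12.42 after thapsigargin, and in Atf4, whose log2 P/FM was -1.60 and then 1.83.

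Myc gave nearly equal signals in both fractions on the control array and a brighter polysomal than FM signal on the thapsigargin array. Over its 3 probes, log2 P/FM was 0.02 ± 0.02 (SD between probes, n = 3) in control and 1.28 ± 0.37 after thapsigargin. The change was 1.25 ± 0.39, a 2.38-fold higher ratio, and 1.90 above the median of all coding probes. All 3 Myc probes differed in the same direction, and under the 17 alternative settings the Myc change ranged from 1.19 to 3.80.

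The 3 Myc probes gave nearly the same ratio in control cells and different ratios under stress. The probe from base 1407 had log2 signals of 6.35 (P) and 6.31 (FM) in control and 7.28 and 6.42 after thapsigargin. The probe over the stop codon had 8.96 and 8.96 in control and 10.44 and 8.87 after thapsigargin. The probe past the stop codon, printed as 10 spots, had a mean of 10.02 and 9.98 in control and of 11.47 and 10.08 after thapsigargin. In each probe, therefore, the polysomal signal was higher under stress by 0.93 to 1.48, and the FM signal stood between 0.10 lower and 0.11 higher. Over all coding probes the median changes were 0.08 (P) and 0.71 (FM). In log2 P/FM the changes were 0.82, 1.58 and 1.35, in order along the transcript, with an SD of 0.39 between probes. The usual spread between probes of a gene was similar (a median SD of 0.34 over 3561 genes). The probe with the lowest change was also the dimmest.

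The 10 spots of the Myc probe past the stop codon show how well a ratio repeats within an array. In control, log2 P/FM over these spots was -0.04 at the lowest, 0.01 at the median and 0.18 at the highest. After thapsigargin it was 1.32, 1.39 and 1.45. The spots of the arrays did not overlap, and the change had an SD of 0.08 between spots (n = 10). The spots differed more in level than in ratio, as A in control ran from 9.53 to 10.30.

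**Figure D1:**
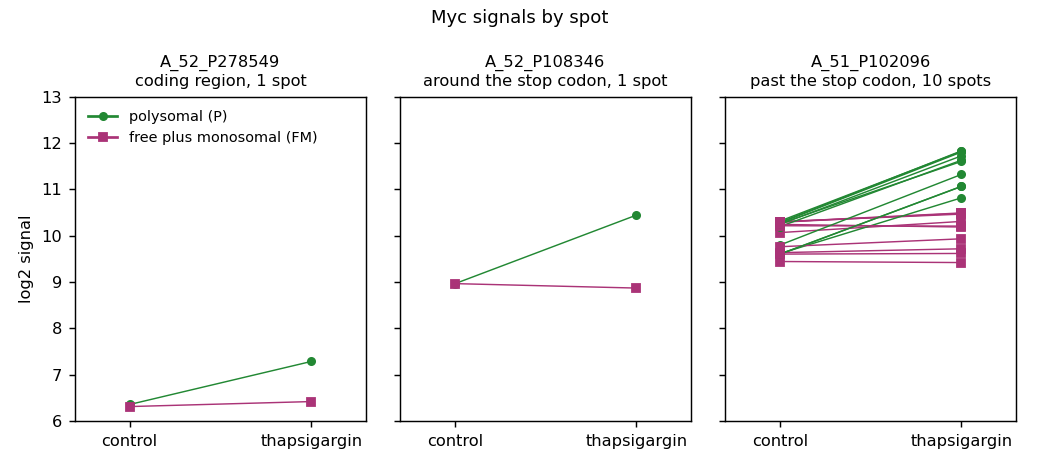
Log2 signal (vertical axis) of Myc in the polysomal (circles) and the free plus monosomal fraction (squares) on the control and the thapsigargin array, 1 line per spot, for the 3 probes in order along the transcript. In all panels the polysomal lines climb, by 0.93 to 1.48 on average, while the free plus monosomal lines stay near level; heights are not comparable between probes.

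In total signal Myc lay closer to the other mRNAs. Its A was higher by 0.66 ± 0.13 (SD between probes, n = 3), a 1.58-fold difference that exceeded the median of all coding probes by 0.26. The change in A itself was -0.0066 with normexp, 0.16 after centring and 0.29 with the dye-normalized signals. The median of all coding probes under these settings was -0.53, -0.10 and 0.04, so Myc stayed above it in each. None of the 3 probes reached a change of 1 in A. By the translation classes of the study, in which inducible mRNAs lie at or below 0 in control and gain 1 or more, only the stop codon probe was inducible, with log2 P/FM of -0.0033 in control. The probe past the stop codon missed the class with a control value of 0.03, and the most upstream probe missed it on both counts. Among all coding probes 11.0% were inducible.

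Max, the shared partner of Myc and of the repressors, moved little. Its log2 signals were 10.19 (P) and 10.17 (FM) in control and 10.40 and 10.85 after thapsigargin. Log2 P/FM was thus 0.02 in control, the same as that of Myc to 2 decimals, and -0.44 under stress. The change of -0.46 lay 0.18 above the median coding probe, and 55.2% of coding probes had a lower one. Relative to that median it was -0.38 with normexp and -0.01 without background subtraction. The sign of the change itself was not stable. It was 2.09 with spike-in scaling, 0.69 after loess, 0.68 with the dye-normalized signals of the scanner software and 0.08 when both arrays were centred. Only 1 Max probe was on the array, so the spread between probes is unknown.

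Myc and Max therefore had equal ratios on the control array and ratios 1.72 apart on the thapsigargin array. Their changes differed by 1.71, and under the 17 alternatives this difference ran from 1.26 to 1.93. Among these, centring, spike-in scaling and the summed signals cannot alter it.

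Mxd3 and Mxd4, Max-binding repressors of the Mxd family, had lower ratios after thapsigargin on both of their measured probes. Mxd3 had a log2 P/FM of 1.61 ± 0.26 (SD between probes, n = 2) in control and -1.25 ± 0.10 after thapsigargin. The change of -2.86 ± 0.36 was a 7.26-fold lower ratio, and was -2.21 relative to the median coding probe. This was the lowest change of the 8 measured members. Its A differed by -0.41 ± 0.40.

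Both Mxd3 probes showed the crossing of the fractions. The probe printed above had log2 signals of 7.88 (P) and 6.46 (FM) in control, against 5.88 and 7.07 after thapsigargin. The other, A_52_P190647, had 8.67 and 6.87 in control, against 6.98 and 8.30. The polysomal fraction was the brighter in control and the dimmer under stress in both, and only 4.32% and 1.24% of coding probes had a lower change. Under the 17 alternatives the Mxd3 change ran from -3.12 to -0.31, with the latter under spike-in scaling, and was -1.27 with normexp.

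Mxd4 was measured by 2 probes of different accessions. The probe for the coding accession NM_010753 had log2 signals of 6.52 (P) and 5.62 (FM) in control and 4.95 and 6.47 after thapsigargin, so that log2 P/FM was 0.90 and then -1.52. The probe A_52_P230650, for the cDNA clone BC025016, had 7.40 and 6.48 in control and 6.59 and 7.33 after thapsigargin, giving 0.92 and then -0.74. The probes had the same ratio in control within 0.02, and their changes of -2.42 and -1.66 differed by more than the usual spread between probes of 1 gene (a median SD of 0.34 over 3561 genes). The mean change was -2.04 ± 0.54 (SD, n = 2), or -1.40 relative to all coding probes. With normexp it was -0.45, no longer lower by 1. Scaling to the spike-in controls turned it to 0.51, since that scaling raised the median of all coding probes to 1.91. A differed by -0.17 ± 0.27.

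Mlx, the partner that stands in for Max, had a change of this size too. Its log2 signals were 8.73 (P) and 7.51 (FM) in control and 7.45 and 8.58 after thapsigargin. Log2 P/FM was 1.22 and then -1.13, a change of -2.35 or a 5.08-fold lower ratio, and -1.70 relative to the median coding probe. With normexp the change was -1.36, and with the spike-in scaling it was 0.20, still below the median of all coding probes. A differed by -0.10. The polysomal and FM signals thus moved in opposite directions, by -1.27 and 1.07. The medians over all coding probes were 0.08 and 0.71, so a higher FM signal was general on the thapsigargin array.

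Mxd1, Mnt and Mxi1, the other repressors that pair with Max, had ratios that differed by less than 0.5 between the arrays. Mxd1 had log2 signals of 5.41 (P) and 5.18 (FM) in control and 7.55 and 6.83 after thapsigargin. Both fractions were brighter under stress, by 4.39-fold (P) and 3.14-fold (FM), and A was higher by 1.89. Only 1 member reached a change of 1 in A in either direction, and it was Mxd1, where 99.2% of coding probes had a lower change and 13.4% were higher by 1 or more. Log2 P/FM of Mxd1 was 0.23 and then 0.71, a change of 0.48, or 1.13 above the median coding probe. Its control signals were dim, so that it passed no filter of A above 5.5. With the normexp background correction the change in A was -0.45, where the median of all coding probes was -0.53.

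Mnt, a repressor that most tissues express and that binds Max and Mlx, had log2 signals of 10.64 (P) and 9.64 (FM) in control and 11.37 and 10.57 after thapsigargin. Log2 P/FM was 1.00 and then 0.79, high on both arrays, and 86.4% of coding probes had a lower ratio under stress. The class of resistant mRNAs requires 0.8 on both arrays, which Mnt just missed and no member met, beside 3.54% of all coding probes. A was higher by 0.83. The change of -0.20 in log2 P/FM was 0.44 above the median coding probe, and its sign turned with the dye-normalized signals (0.99), loess (1.00), centring (0.34), the spike-in scaling (2.35) and the normexp background correction (0.03).

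Mxi1 was the member with the lowest ratio in control. Its log2 signals were 7.16 (P) and 8.28 (FM) in control and 7.23 and 8.55 after thapsigargin, so both fractions stayed close to where they were. Log2 P/FM was -1.12 and then -1.32, and only 9.64% of coding probes had a lower ratio in control. The change of -0.20 was 0.44 above the median coding probe, but relative to that median it was -0.27 with normexp. The change itself was above 0 with the dye-normalized signals (0.07), loess (0.22), centring (0.34) and the spike-in scaling (2.35).

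Mycn, which is active mainly in embryonic and neural tissue, was not measurable in these fibroblasts. Its probe A_51_P497332 was not well above background in either fraction on either array. Its probe A_52_P536494 was well above background in the polysomal fraction of control cells alone, with a log2 signal of 4.84. After thapsigargin its log2 signal in that fraction was 2.85, which was not well above background. This rests on 1 spot on each array, so no fold difference is given. A second probe of Mxd1 (A_51_P388607), one of Mlx (A_52_P309904) and one of Mxd4 (A_52_P528996) were also not well above background in either fraction on either array.

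**Figure D2:**
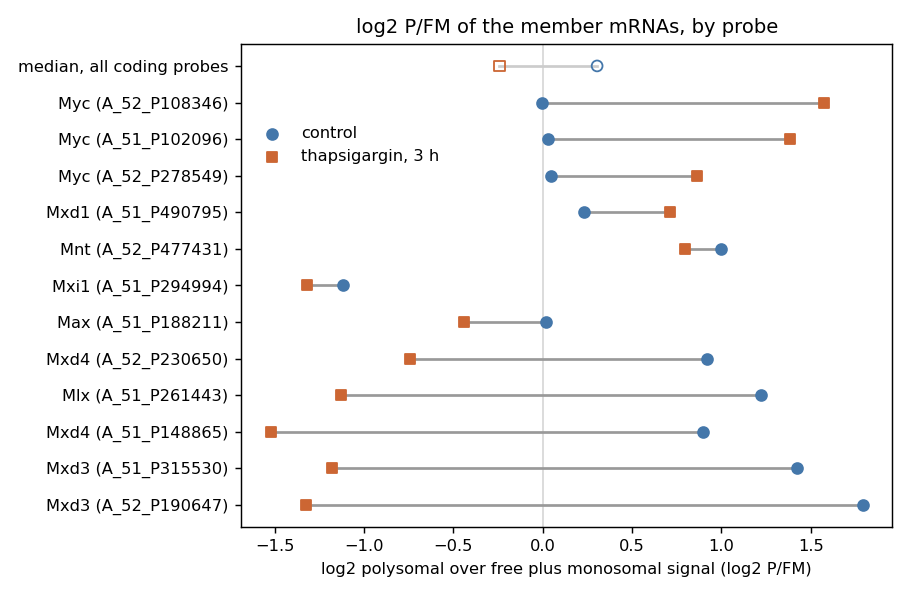
Log2 P/FM (horizontal axis) in control (circles) and after thapsigargin (squares) for each of the 12 member probes above the filter, ordered by change, with the medians of all coding probes in open symbols on top. The 3 Myc probes move right from near 0, the Mxd3, Mxd4 and Mlx probes move from 0.90 or more to -0.74 or less, and the other members stay within 0.48 of their control value. With spike-in scaling the Mxd4 and Mlx changes are above 0.

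Across the 12 probes, 2 (both of Myc) were higher by 1 or more in log2 P/FM, beside 12.6% of all coding probes, and 5 (of Mxd3, Mxd4 and Mlx) were lower by 1 or more, beside 39.2%. The same 5 probes made up the sensitive class, with a change of -0.8 or lower, which held 45.2% of all coding probes. The median change over member probes was -0.33 in log2 P/FM and 0.31 in A. Both counts are near the background shares and describe no trend of the members, whose changes ranged from -3.12 to 1.58. In control, 10 of the 12 probes had a ratio at or above 0, and after thapsigargin 5 did; over all coding probes these shares were 61.8% and 40.2%.

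The order of the genes by change was Myc, Mxd1, Mnt, Mxi1, Max, Mxd4, Mlx and Mxd3. Mnt and Mxi1 were 0.0022 apart, Mxi1 and Max 0.26, and Mxd4 and Mlx 0.30, all less than the median SD between probes of 1 gene (0.34). The widest step, 1.58, lay between Max and Mxd4. Between Myc and Mxd1 it was 0.77, between Mxd1 and Mnt 0.69, and between Mlx and Mxd3 0.51.

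Taken by fraction, the members as a group lay near all coding probes. The FM signal was higher after thapsigargin in 11 of 12 probes, with 1 Myc probe as the exception, and the change ran from -0.10 to 1.65. The polysomal signal was higher in 7 probes and lower in 5, from -2.00 to 2.13. The median change over member probes was 0.77 in FM and 0.14 in P, beside 0.71 and 0.08 over all coding probes. These counts therefore describe no trend of the members. The members were spread more widely in the polysomal fraction: the changes of the Mxd3, Mxd4 and Mlx probes were -2.00 to -0.81 there and 0.60 to 1.43 in FM. Per the methods of the study, the sum of both fractions was set to a fixed amount for labelling, and their measured proportions were kept. More polysomal than FM RNA was thus labelled in control, and more FM RNA under stress. These are therefore changes in relative signal and not in number of molecules.

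**Figure D3:**
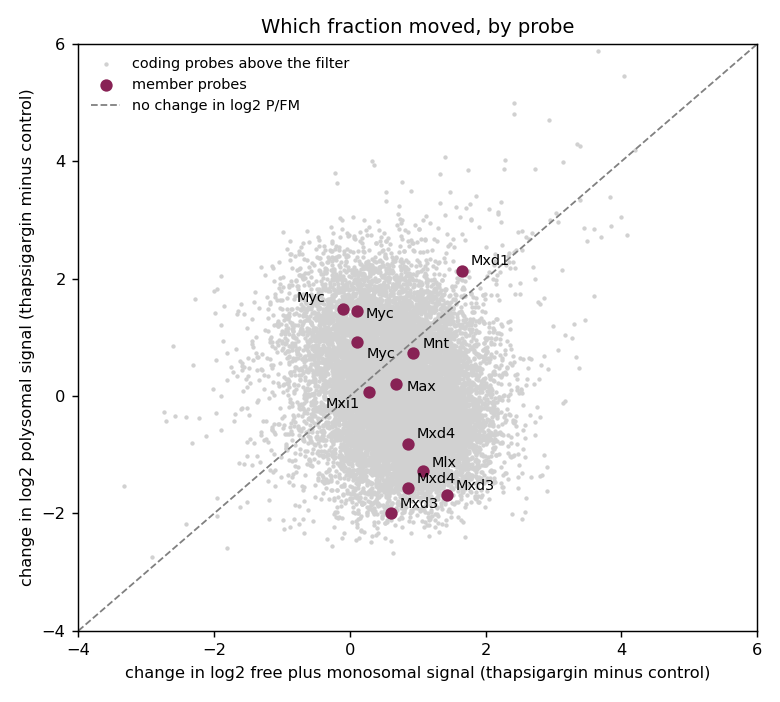
Change in log2 polysomal signal (vertical) against change in log2 free plus monosomal signal (horizontal), thapsigargin minus control, for all 14657 coding probes above the filter (grey) and the 12 member probes (dark). Points above the dashed line have a higher log2 P/FM under stress; Myc lies above it with almost no horizontal change, Mxd1 near the line at upper right, and Mxd3, Mxd4 and Mlx below it.

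The coding genes with the pattern of signals most like that of Myc were found by Euclidean distance over 4 gene means (log2 P and FM, control and thapsigargin), among 9143 genes with every probe well above background. Among the nearest were Rpgrip1, Antxr1, Smcr8 and Topors, at distances of 0.21 to 0.33. Smcr8, an autophagy factor, had log2 P/FM of 0.13 in control and 1.55 after thapsigargin, a change of 1.42. The measure includes signal level, which depends on the probe.

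Among genes that work with the network, the other partners of Max and Mlx came first. Mga, a large protein that pairs with Max, had log2 P/FM of -0.96 in control and 1.82 after thapsigargin, a change of 2.78 ± 0.19 (SD between probes, n = 2). Its polysomal signal was higher by 2.72 and its FM signal differed by -0.06. Mlxip, a glucose-responsive partner of Mlx, had 1.29 and then 1.09. Of the 4 genes in this list 2 passed the filter, and over all coding genes the median change was -0.71, with 10.9% higher and 40.9% lower by 1 or more.

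Of the other E-box factors of the same structural class, 1 of 8 was higher and 2 were lower by 1 or more, with a median of -0.60. The shares over all coding genes were 10.9% and 40.9%. Usf1, a widely expressed factor, went from 1.27 to -0.69, and Srebf2, a regulator of cholesterol synthesis, from 0.03 to -1.24. Mitf, a lineage factor of pigment cells, went from -0.33 to 0.68, and Tfe3, a regulator of lysosome genes, from 0.59 to 0.35.

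The cofactors that Myc or the Mxd proteins recruit had shares near those of all coding genes. Of 17 genes, 2 were higher and 8 lower by 1 or more, beside 10.9% and 40.9% of all coding genes. The median of the list was -0.63. With normexp this median was 0.37, where that of all coding probes was 0.02, and with A above 5.5 it was -1.002, against -0.762. Bptf, a chromatin remodelling subunit, had log2 P/FM of -0.33 and then 2.20, and Ep400, an ATPase of a histone acetyltransferase complex that Myc recruits, had -0.98 and then 0.91. Ruvbl2, a partner ATPase in such complexes, had 1.46 and then -0.57, and Smarcb1, a SWI/SNF subunit, had 1.90 and then -0.12.

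Among 19 genes that control the Myc protein or mRNA, 2 were higher and 5 lower by 1 or more. The shares over all coding genes were 10.9% and 40.9%. The median of the list was -0.07, and turned to 0.21 with normexp, 0.26 with the dye-normalized signals, 0.27 after loess and 0.48 after centring. For all coding probes the median under these settings was 0.02, -0.23, -0.115 and -0.10. Gsk3b, a kinase that marks Myc for destruction, went from -0.07 to 1.10, while Usp28, which removes ubiquitin from Myc, went from -0.47 to 0.05. Stub1, a ubiquitin ligase, went from 1.12 to -1.91.

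Both lists of genes that Myc is known to activate had a median log2 P/FM above that of all coding genes in control cells (0.33). Single genes of each list had a negative ratio there. For the 23 genes of the nucleolus and ribosome making, median log2 P/FM was 0.91 in control and 0.23 after thapsigargin. In this list 1 gene was higher and 8 were lower by 1 or more, beside 10.9% and 40.9% of all coding genes. The median change of -0.69 turned to 0.47 with the dye-normalized signals, 0.56 after loess and 1.86 with spike-in scaling. The median of all coding probes under these settings was -0.23, -0.115 and 1.91. Npm1 and Fbl, abundant nucleolar proteins, had changes of -2.88 and -2.77. Polr1a, the largest subunit of RNA polymerase I, had 2.34, and Ddx21, a nucleolar helicase, 0.98.

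For the 24 targets in growth metabolism and the cell cycle, median log2 P/FM was 1.20 in control and -0.01 after thapsigargin. Of these genes, 2 were higher and 12 lower by 1 or more, beside 10.9% and 40.9% of all coding genes. The median change of -1.03 became 1.52 with the spike-in scaling, where that of all coding probes was 1.91. Odc1, the first enzyme of polyamine synthesis, went from 0.35 to -3.07, a change of -3.42 ± 0.20 (SD between probes, n = 3), and Nme1, a nucleoside diphosphate kinase, from 2.56 to -0.82. Hk2, which starts glycolysis, went from -0.75 to 1.21, and Tfrc, the transferrin receptor, from -1.30 to 0.54. A was higher by 1.94 in Hk2.

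Of 12 genes that Myc is known to repress, 8 passed the filter. Of these 8, 2 were higher by 1 or more in log2 P/FM and none lower, against 10.9% and 40.9% of all coding genes. The median change was 0.03, and became 0.57 when centred, 0.90 with the dye-normalized signals and 1.26 after loess. For all coding probes the median under these settings was -0.10, -0.23 and -0.115. Without a filter on A the median of the list was 0.31. Thbs1, an inhibitor of vessel growth, went from 0.02 to 1.65, and Gadd45a, a growth arrest gene, from -0.27 to 0.88 with A higher by 3.30. Ccnd1, a G1 cyclin, went from 0.72 to 0.20, and Col1a2, a collagen chain, from 0.75 to 0.30.

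**Figure D4:**
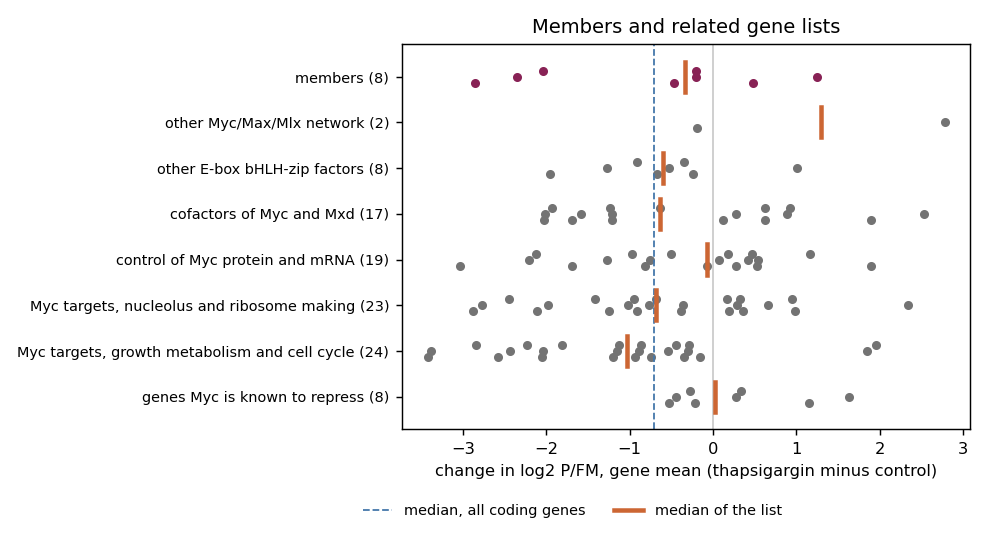
Change in log2 P/FM (thapsigargin minus control, mean over the probes of a gene) for the members and for 7 lists of related genes, 1 point per gene, with the number of genes in parentheses. Thick bars are list medians and the dashed line is the median of all coding genes (-0.71); centring or spike-in scaling would shift all points and the line together.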

How the data were processed

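Intensity values of NIH3T3 cells, 1 two-colour Agilent array per condition, were used. Per the submitters' processing notes, the deposited intensity values and log10 ratios came from Agilent Feature Extraction 10.7.1. The authors also deposited a table of log2 ratios; 99.99% of its rows equalled accession means computed here within 0.001. Flags of 0 or 1 in the deposited files mark other properties of a spot (well above background, outlier).

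From each mean spot signal the local background median was taken away, results below 0.5 were set to 0.5, and log2 was taken, without normalization, as the methods name it. No member spot was saturated or flagged as an outlier; 295 of 43379 non-control spots were left out. Spots of 1 probe were averaged, and the probe was the unit. Calls needed a change of 1. All 14 coding member probes matched their symbol in RefSeq (GRCm38.p6, names only). The members and lists were chosen with earlier results of these data known. Genes named are all members, the 2 highest and 2 lowest of each list with every probe well above background, the 5 nearest to Myc and the stress checks Hspa5, Ddit3, Atf4 and Herpud1. Some genes that this rule names are not reported here. Steps were tested on simulated data. Python 3 with pandas, and limma for normexp (offset 50) and loess, were used.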

Additional observations from a re-analysis of the deposited data

How the results depend on the processing

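No paired analysis was possible because each condition had 1 array, and for the same reason no array could be left out. In this paragraph the main value comes first, and the cause of each shift was not tested except where the setting itself fixes it. The median change in log2 P/FM over member probes (-0.33) was 2.22 with spike-in scaling, 0.27 after loess, 0.21 after centring, 0.12 with the processed signals or log ratio of Feature Extraction and -1.06 with the accession as the unit. The number of member probes higher by 1 or more (2 of 12) was 4 of 12 after centring, 7 of 12 after spike-in scaling, 1 of 8 with the accession and 1 of 7 with the gene symbol as the unit, and 1 of 9 in the authors' value table, where Myc is a single entry. The number lower by 1 or more (5 of 12) was 2 of 12 with normexp, 0 of 12 after spike-in scaling, 2 of 7 with A above 7, 8 of 17 without a filter on A, 3 of 7 with the gene symbol as the unit and 3 of 9 in the authors' value table, where the number of units differs too. The median change in A (0.31) was -0.62 with normexp, -0.10 with the processed signals, -0.19 after centring, 0.57 after spike-in scaling, 0.085 without a filter and 0.10 with the accession as the unit. The Myc change (1.25) was 3.80 with spike-in scaling, 1.96 after loess, 1.80 after centring and 1.95 with the processed signals or log ratio of Feature Extraction. Among other values, the Mxd1 change in A was -0.45 with normexp, where the median of all coding probes was -0.53. The changes of Mxd4 and Mlx were 0.51 and 0.20 and the median of the metabolic and cell cycle targets 1.52 after spike-in scaling. The median of the other network genes was -0.27 without a filter. The Mxd4 change was -0.45 with normexp. Relative to the median of all coding probes under the same setting, Myc was above it in all 18 settings, by 1.33 to 2.48, Mxd3 and Mlx were below it in all 18 and Mxd4 in all 17 that gave it a value. Mxd1 was above it in all 14 that gave it a value, and Mnt in all 18, at the lowest by 0.006. Max was above it in 16 of 18 settings and Mxi1 in 17 of 18. With normexp the median log2 polysomal signal of all spots was 7.73 on the control and 6.05 on the thapsigargin array, against 3.84 and 3.58 without it. Of the remaining alternative values for the 5 main results, 55 moved by less than the spread between probes or stayed within 1.5 times a count. Dim signals limit Mycn, and Mxd1 in control.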

Other observations

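Herpud1, a protein of endoplasmic reticulum degradation, and Hspa5, the main chaperone there, were the remaining stress checks. A of Herpud1 was higher by 4.19 with a log2 P/FM of 0.67 in control and 0.66 after thapsigargin, and A of Hspa5 was higher by 1.96 with a log2 P/FM of 1.06 and then 2.43.

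In the authors' value table each of the 9 members had 1 entry, Mycn included. Mycn had a log2 ratio of -0.04 in control and -0.73 after thapsigargin there, although neither of its probes was well above background in both fractions. Mxd1 had -0.22 and then 0.48, as the entry averages the measured probe with one that was not well above background.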
